A study of Mus musculus with 3 samples.

Results

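Genes of 2 protein-quality programmes were followed in single cells of mouse small-intestinal crypts: 22 genes of the endoplasmic reticulum (ER) and 10 heat shock genes, 32 in all of the 28692 genes in the deposited tables. They were chosen by symbol, with earlier results of these data known, and all 32 were found. The ER genes are the unfolded protein response sensors Ern1 and Ern2, the transcription factors Atf4, Ddit3 and Xbp1, the folding chaperones Hspa5, Hsp90b1, Hyou1, Calr, Canx, Dnajb9, Dnajc3 and Sdf2l1, the disulfide isomerases Pdia3, Pdia4 and Pdia6, the degradation factors Herpud1, Sel1l, Edem1 and Derl3, and the secreted ER proteins Manf and Creld2. The heat shock genes are the cytosolic Hspa1a, Hspa1b, Hspa8, Dnajb1, Hsp90aa1, Hsp90ab1, Hsph1 and Hspb1 and the mitochondrial pair Hspd1 and Hspe1.

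When proteins fold poorly inside the ER, 3 membrane sensors start the unfolded protein response: IRE1 splices the mRNA of Xbp1, PERK raises translation of Atf4 and through it Ddit3, and ATF6 is cut and moves to the nucleus. The result is more chaperones, isomerases and degradation factors. Secretory cells such as the mucus-making goblet cells depend on this machinery, and IRE1 beta (Ern2) is known from the mucus-secreting epithelium of the gut. Misfolding in the cytosol instead frees the heat shock factor HSF1, which raises Hspa1a, Hspa1b, Dnajb1, Hsph1 and Hspb1, while Hspa8, Hsp90ab1, Hspd1 and Hspe1 are abundant in unstressed cells too.

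Each genotype was represented by 1 10x Genomics Chromium library (3' chemistry, version 3), so no difference was tested, and all intervals are exact 95% intervals that cover counting error only. All mice were adult C57BL/6 animals of 2-3 months with the allele Olfm4-IRES-eGFPCreERT2, which drives a tamoxifen-dependent Cre from Olfm4, a gene of crypt-base stem cells; Cre then marks those cells and their epithelial descendants, and immune cells are not its target. The control was CDC42+/flox, the KO CDC42flox/flox, and the rescue CDC42flox/flox with Yapflox/flox and Tazflox/+. How many mice went into a library, and when or whether tamoxifen was given, is not stated in the labels. CDC42 is a small GTPase of cell polarity, and YAP and TAZ (gene Wwtr1) are transcriptional co-activators of the Hippo pathway.

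The control library held 6152 barcodes and 58433966 UMIs (unique molecular identifiers, counted once per captured RNA molecule), the KO library 4786 and 85525811, and the rescue library 3449 and 64355665. A barcode was kept as a cell if it had 500 genes or more, 1000 UMIs or more and no more than 20% of its UMIs from mitochondrial genes, which left 1595, 2036 and 1897 cells. The mitochondrial limit was exceeded by 66.3%, 54.1% and 38.3% of barcodes, and between 3 and 11 barcode sequences were shared by any pair of libraries. The targeted gene Cdc42 was no lower in KO cells of any class than in the control: it stood at 238, 336 and 341 CPM (UMIs of the gene per 1000000 UMIs of the class) in Mki67-positive cells of control, KO and rescue, and at 348, 419 and 542 CPM in Fabp1-high cells. Whether the counted 3' tag of Cdc42 lies inside or outside the deleted part of the gene is unknown here. These levels therefore cannot show whether the gene was lost, and their cause was not tested. Control, KO and rescue below mean the libraries labelled so.

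Kept cells were put into 4 exclusive classes. Ptprc-positive cells (888, 268 and 811 in control, KO and rescue) had more UMIs of the leukocyte gene Ptprc than of the epithelial gene Epcam. Mki67-positive cells (80, 227 and 278) had at least 2 UMIs of this proliferation gene. Muc2-high cells (60, 196 and 36) had at least 10 UMIs of the goblet cell mucin Muc2 per 10000, and Fabp1-high cells (158, 877 and 425) at least 50 of the enterocyte gene Fabp1. UMIs were summed over each class, and a member was counted in a comparison where it had at least 20 UMIs in 1 of the 2 libraries. The markers matched the class names: 7 goblet markers together made up 112788, 234190 and 183447 CPM of Muc2-high cells, 9 enterocyte markers 73865, 83924 and 59844 CPM of Fabp1-high cells, and 3 endothelial markers together had 0 to 6 UMIs per library in the 3 epithelial classes. The classes were mixed. In the control, 8 of the 80 Mki67-positive and 7 of the 60 Muc2-high cells carried Paneth cell levels of Lyz1, and 6 Paneth markers made up 65272, 97.1 and 4244 CPM of Mki67-positive cells. In that class 9 enterocyte markers stood at 2946, 10050 and 2936 CPM, 5 stem cell markers at 911, 219 and 428 CPM, and 3 stromal markers at 0, 71.8 and 9.87 CPM. The part of these markers in the Mki67-positive ratios was not tested. Median depth was alike across libraries in Ptprc-positive cells (5224.5, 5339 and 5032 UMIs per cell) but not in Fabp1-high cells (44642.5, 44661 and 5144).

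Both responses act through known promoter sequences, and the matches are shown because they belong to the genes and do not depend on the counts. RefSeq promoter windows (mouse build GRCm38.p6, 250 bases before to 50 after the start) were at hand for 26 of the 32 members. The ER stress response element, CCAAT and CCACG with 9 bases between, was searched on both strands and found in 8 of 19 ER genes with a window (42.1%), in 0 of 7 heat shock genes and in 37 of all 27025 windows (0.137%). The heat shock element, here 3 alternating GAA and TTC units with 2 bases between, was found in 3 of 7 heat shock genes (Hspd1, Hspe1 and Hsph1), in 0 of 19 ER genes and in 179 of 27025 windows (0.662%). The shorter core CCACG, which lies within the first motif, was in 84.2% of the ER windows, 57.1% of the heat shock windows and 35.5% of all windows. The TATAAA box was in 1 of 19 ER windows, 0 of 7 heat shock windows and 15.7% of all windows. A match is a description of letters and not evidence of binding. Below, each line is read 5' to 3' on the strand of its gene, with the motif in capitals; CGTGG and ATTGG are the same element on the opposite strand.
Hspa5, chr2:34772013-34772055, plus strand, 65 to 47 bases before the start: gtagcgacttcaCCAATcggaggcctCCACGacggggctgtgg
Dnajc3, chr14:118937815-118937857, plus strand: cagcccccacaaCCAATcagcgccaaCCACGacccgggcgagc
Pdia6, chr12:17266479-17266521, plus strand: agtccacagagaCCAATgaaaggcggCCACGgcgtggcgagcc
Canx, chr11:50325788-50325830, minus strand: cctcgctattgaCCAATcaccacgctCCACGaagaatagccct
Calr, chr8:84847063-84847105, minus strand: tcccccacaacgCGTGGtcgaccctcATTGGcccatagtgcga
Creld2, chr15:88819508-88819550, plus strand: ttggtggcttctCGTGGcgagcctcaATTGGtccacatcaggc
Derl3, chr10:75893230-75893272, plus strand: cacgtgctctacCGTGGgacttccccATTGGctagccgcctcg
Hsp90b1, chr10:86705626-86705668, minus strand: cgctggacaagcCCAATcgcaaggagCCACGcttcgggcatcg
Hsp90b1, chr10:86705521-86705563, minus strand: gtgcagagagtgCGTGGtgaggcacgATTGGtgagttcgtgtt
Hspd1, chr1:55088047-55088088, minus strand, 144 to 127 bases before the start: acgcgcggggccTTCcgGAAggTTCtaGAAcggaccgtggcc
Hspe1, the same stretch on the plus strand, 89 to 72 bases before the start: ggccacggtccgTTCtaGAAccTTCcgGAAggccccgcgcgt

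Hspd1 and Hspe1 lie head to head on chromosome 1. The window of 1 annotated start of Hspd1 overlaps that of Hspe1, which is why their lines mirror each other. The distance printed for Hspd1 is from that start. The window of its other annotated start (chr1:55088194-55088493) held no heat shock element, and the printed stretch lies after that start. Hsp90b1, the ER member of the HSP90 family, had 2 elements in its window. The match of Hsph1 was 1 site seen from 2 annotated starts, lay after both, and is not printed.

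**Figure D1:**
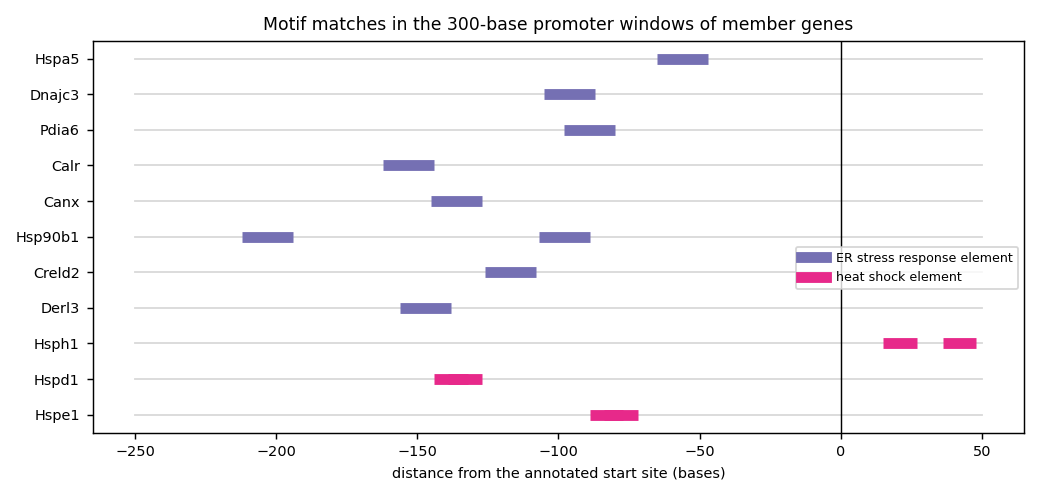
Position of each match within the 300-base promoter windows, with the distance from the annotated start in bases on the x axis and 1 gene per row. ER stress response elements (violet) lay before the start in all 8 ER genes. Heat shock elements (pink) lay before the start in Hspe1 and before 1 of the annotated starts in Hspd1. In Hsph1 the element lay after the start, and this single site is drawn once for each of 2 annotated starts.

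Across the classes, most ER genes were highest in mucus-secreting cells of the control and rescue but not of the KO. In Muc2-high cells, 17 of 22 ER genes had their highest CPM among the 4 classes in control, 6 in KO and 16 in rescue cells. In the KO, 10 of the 22 were highest in Mki67-positive cells instead, against 1 in the control and 3 in the rescue. Xbp1, Herpud1, Pdia3, Calr and Ern2 were highest in Muc2-high cells in all 3 libraries. Of the heat shock genes, Hsp90ab1, Hspd1 and Hspe1 were highest in Mki67-positive cells in all 3 libraries, and Hsph1 and Hspb1 in Ptprc-positive cells. Summed over the 22 ER genes, Muc2-high cells held 7436 CPM in control, 4292 in KO and 7702 in rescue cells. Summed over the 10 heat shock genes, Ptprc-positive cells held 4653, 7294 and 5669 CPM. In these sums a change in the RNA of all other genes cannot be told apart from a change in the members.

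**Figure D2:**
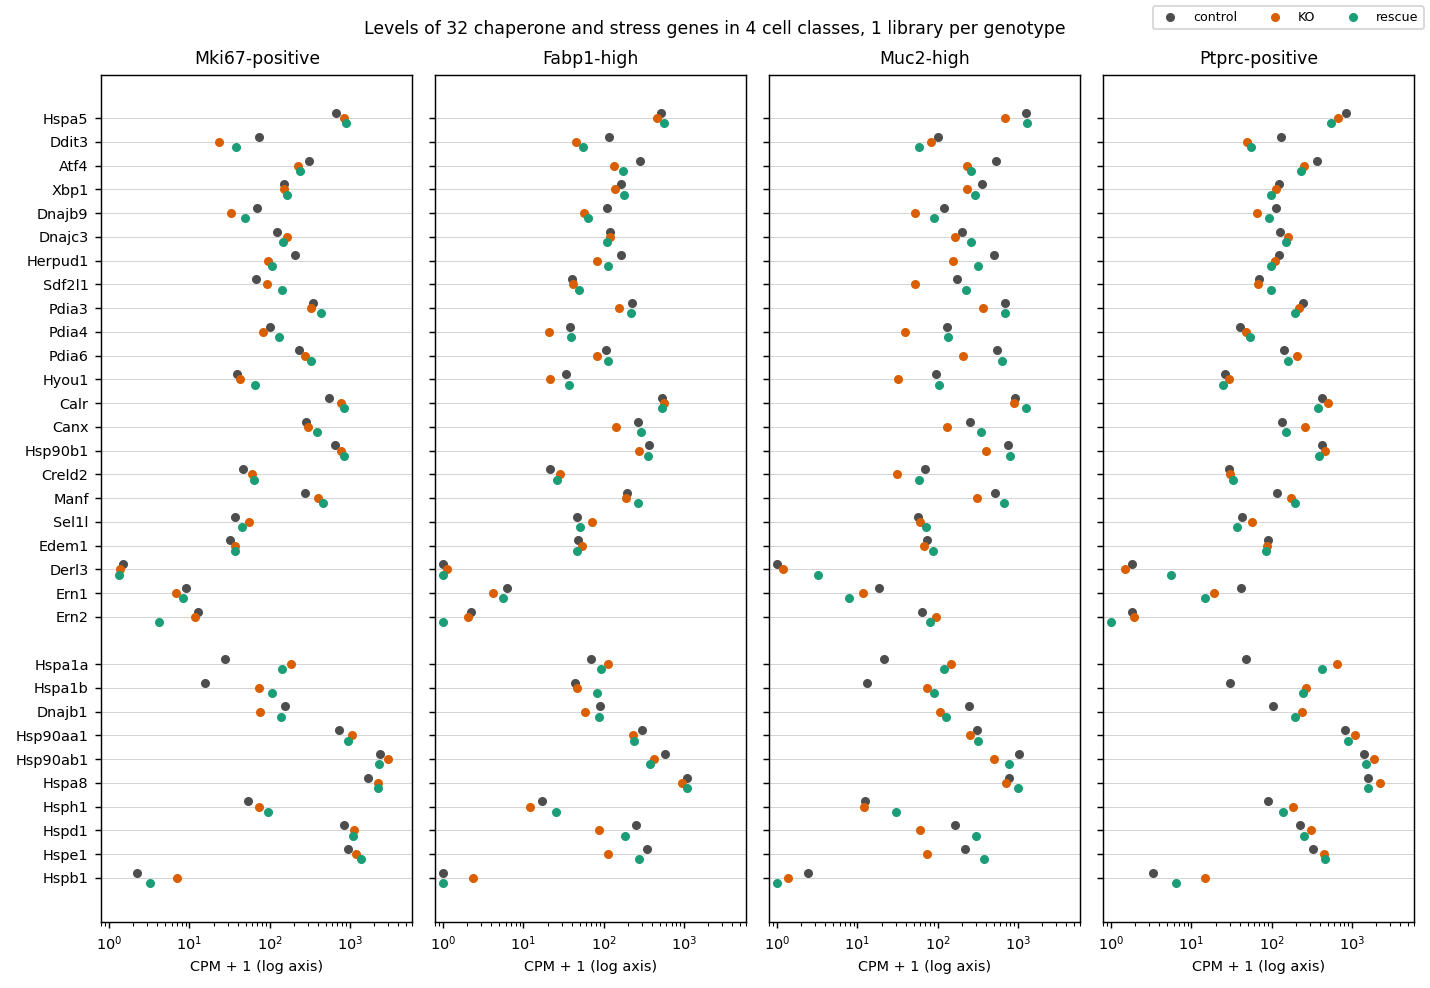
Level of each of the 32 genes in the 4 cell classes, as CPM plus 1 on a log axis, with 1 point per library. In the Muc2-high panel the KO points of most ER genes lie to the left of both other libraries, and in the Ptprc-positive panel the control points of Hspa1a and Hspa1b (47.4 and 29.4 CPM) lie far to the left of the KO (658 and 267) and the rescue (417 and 244).

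The first comparison set the KO library against the control, which asks what differs where both Cdc42 alleles are floxed. In Muc2-high cells 8 of 21 counted ER genes were at least 2-fold lower and 0 at least 2-fold higher in the KO, where 16.3% of all 8459 genes counted were lower and 18.2% higher. The share of ER genes lower was thus above the background, and 19 of 21 had a ratio below 1, with a median log2 ratio of -0.92 against -0.03 for all genes. Of 9 heat shock genes counted there, 2 were at least 2-fold higher and 4 at least 2-fold lower (median -0.29). In Ptprc-positive cells, by contrast, the ER genes were split evenly, 10 above and 10 below a ratio of 1 (median 0.02). There 0 were at least 2-fold higher and 2 at least 2-fold lower, against backgrounds of 16.4% and 13.3%. All 10 heat shock genes had a ratio above 1 in Ptprc-positive cells, 5 of them at least 2-fold, with a median of 0.76 against -0.03 for all genes. That count was 2 of 10 in cells with at least 5000 UMIs, where 17.8% of all genes were at least 2-fold higher, so that it was near the background.

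In Mki67-positive and Fabp1-high cells the ER genes were closer to their background than in Muc2-high cells. In Mki67-positive cells 0 of 21 ER genes were at least 2-fold higher and 3 at least 2-fold lower, against 10.3% and 7.92% of 10848 genes. The ER median there was 0.14 and that of all genes 0.10. Of the 10 heat shock genes 9 had a ratio above 1 and 1 below. Of them 3 were at least 2-fold higher, a share above the background, and 1 at least 2-fold lower, with a median of 0.45. Without the Lyz1-high cells that median was 0.24. In Fabp1-high cells 0 of 21 ER genes were at least 2-fold higher and 2 at least 2-fold lower, where 10.8% and 19.2% of 10606 genes were, so that the share lower was under the background. Heat shock genes numbered 1 higher and 2 lower of 10, with medians of -0.36 for ER genes, -0.41 for heat shock genes and -0.18 for all genes.

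The second comparison set the rescue, with both Yap alleles and 1 Taz allele floxed as well, against the same KO library, so that the comparisons are not independent, and the levels of all 3 libraries are given side by side below. In Muc2-high cells 7 of 21 ER genes were at least 2-fold higher in the rescue and 0 at least 2-fold lower, against 16.5% and 10.4% of 8418 genes. The ER median was 0.91 there and the median of all genes 0.20. Heat shock genes were higher by at least 2-fold in 3 of 9 cases and lower in 0 (median 0.49). In Mki67-positive cells 0 of 21 ER genes were past 2-fold higher and 1 lower, with backgrounds of 7.92% and 7.19%, and the medians were 0.18 for ER genes and -0.01 for heat shock genes, of which 0 were higher and 1 lower.

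In Fabp1-high cells the rescue over KO counts were 1 ER gene higher and 1 lower of 21, and 3 heat shock genes higher and 1 lower of 10, against 10.9% and 12.1% of all genes. Medians were 0.35 for the ER genes and 0.38 for the heat shock genes. These values turned with the mitochondrial limit, and most of the deep Fabp1-high cells of the control and rescue had between 10 and 20% mitochondrial UMIs. Among Fabp1-high cells with at most 10% mitochondrial UMIs, median depth was 1914, 49251 and 3341 UMIs in control, KO and rescue, and the ER medians became 0.82 for KO over control and -1.80 for rescue over KO. In Ptprc-positive cells 1 ER gene was at least 2-fold higher in the rescue and 0 lower of 21, and 0 heat shock genes higher and 1 lower of 10, against 7.74% and 13.5% of all genes. The medians were -0.14 and -0.31, and 9 of 10 heat shock genes had a ratio below 1.

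**Figure D3:**
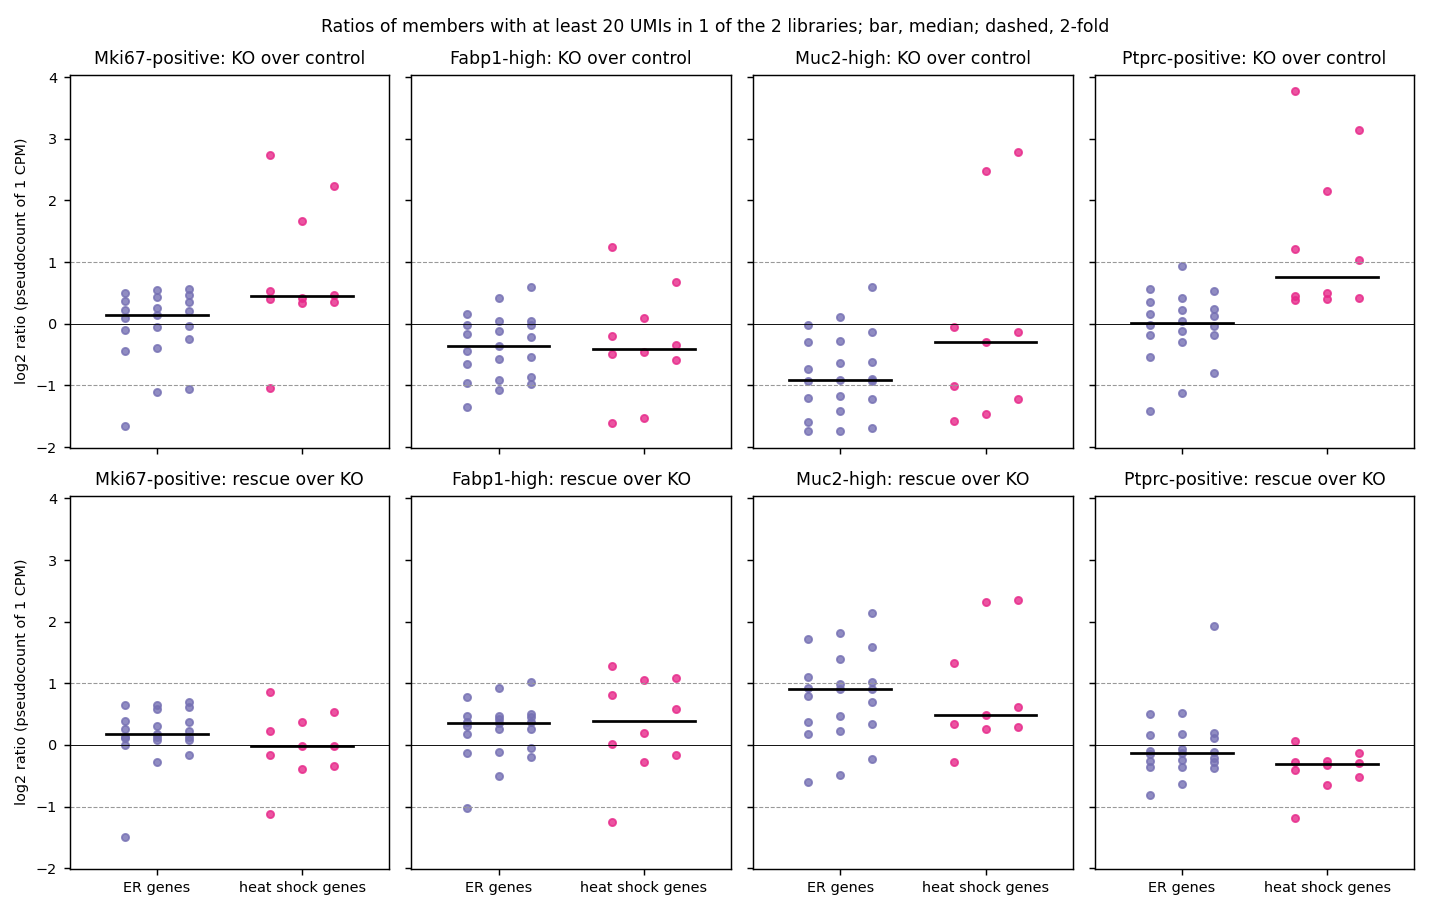
Log2 ratio of each counted gene (pseudocount of 1 CPM) for KO over control in the top row and rescue over KO in the bottom row, by cell class, with ER genes in violet and heat shock genes in pink, bars at the medians and dashed lines at 2-fold. The ER genes of Muc2-high cells centre on -0.92 in the top row and on 0.91 in the bottom row, and the heat shock genes of Ptprc-positive cells all lie above 0 in the top row.

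Among the regulators of the unfolded protein response, Ddit3 was lower in the KO and rescue than in the control in every class. Ddit3 encodes CHOP, the factor that links lasting ER stress to cell death (ENSMUSG00000025408, chromosome 10: 127290774-127296288 in GENCODE vM21). In Mki67-positive cells it stood at 73.6 CPM (interval 65.4-82.4) in control, 22.6 (20.2-25.3) in KO and 37.3 (34.8-39.95) in rescue cells, 3.25-fold (2.76-3.83) lower in the KO than the control. In Ptprc-positive cells it stood at 131, 48.4 and 54.1 CPM, or 2.71-fold (2.20-3.38) lower, and in Fabp1-high cells at 114, 44.0 and 54.6 CPM, or 2.59-fold (2.36-2.84) lower. The Fabp1-high difference was nearly gone at the 10% mitochondrial limit (log2 ratio of Ddit3 -0.06). Muc2-high cells departed from this, with 101, 82.2 and 58.2 CPM, the lowest level being in the rescue.

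The share of cells with a Ddit3 UMI followed the same order outside Muc2-high cells once each cell was thinned to 2000 UMIs. It was 22.3% (19.6-25.2), 9.96% (6.61-14.3) and 10.3% (8.31-12.6) of Ptprc-positive cells in control, KO and rescue, and 43.9%, 26.5% and 25.4% before thinning. In Mki67-positive cells it was 11.2% (5.28-20.3), 3.08% (1.25-6.25) and 8.30% (5.34-12.2). The intervals of control and KO did not overlap in the Ptprc-positive class and did in the Mki67-positive class.

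Atf4, the factor upstream of Ddit3, was likewise highest in the control in every class. It stood at 528, 229 and 260 CPM in Muc2-high cells of control, KO and rescue, 2.31-fold (2.10-2.53) lower in the KO than the control. Its levels were 281, 133 and 174 CPM in Fabp1-high cells, 306, 226 and 239 in Mki67-positive cells, and 366, 250 and 234 in Ptprc-positive cells. Xbp1, whose spliced form drives genes of ER folding and secretion, differed less: 359, 232 and 293 CPM in Muc2-high cells and 151, 148 and 162 CPM in Mki67-positive cells. A 3' count cannot separate the spliced from the unspliced Xbp1 mRNA.

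The 2 IRE1 sensors divided by cell class. Ern2 was highest in the mucus-secreting class, at 62.3, 94.4 and 80.1 CPM in Muc2-high cells against 0.835, 0.940 and 0 CPM in Ptprc-positive cells, where a count of 0 in the rescue allows up to 0.804 CPM. With cells thinned to 2000 UMIs, 12.1%, 25% and 25% of Muc2-high cells had an Ern2 UMI, against 0.115%, 0.766% and 0% of Ptprc-positive cells and 0%, 0.125% and 0% of Fabp1-high cells. In Mki67-positive cells Ern2 stood at 11.7, 10.9 and 3.20 CPM, or 3.40-fold (2.54-4.58) lower in the rescue than the KO. Ern1, the form found in most tissues, was highest in Ptprc-positive cells of all 3 libraries, at 40.1, 17.9 and 13.7 CPM, the KO level being 2.25-fold (1.58-3.27) under that of the control.

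The ER folding chaperones gave the plainest pattern in Muc2-high cells. Their 8 genes together stood at 3785 CPM in control, 2416 in KO and 4359 in rescue cells. Hspa5 (BiP), the HSP70 chaperone that holds the sensors inactive, stood at 1272, 686 and 1287 CPM, or 1.85-fold (1.75-1.96) lower in the KO than the control and 1.87-fold (1.77-1.99) higher in the rescue than the KO. Hsp90b1, its HSP90 partner, stood at 761, 402 and 797 CPM. For both, the KO level was low and those of the control and rescue lay close together.

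Within that group the largest ratios belonged to 2 cofactors of Hspa5. Sdf2l1, which keeps Hspa5 clients soluble with the help of ER J-proteins, stood at 171 CPM (150-194) in control, 50.7 (44.9-57.1) in KO and 226 (201-253) in rescue Muc2-high cells, 3.37-fold (2.82-4.02) lower in the KO than the control and 4.45-fold (3.77-5.27) higher in the rescue than the KO. Hyou1, a large HSP70 relative that exchanges the nucleotide of Hspa5, stood at 95.6, 31.0 and 104 CPM, with ratios of 3.09 (2.44-3.90) lower and 3.37 (2.67-4.25) higher. Dnajb9, a J-protein that represses IRE1, stood at 120, 51.1 and 89.2 CPM and was 2.35-fold (1.93-2.86) lower in the KO. Its relative Dnajc3 differed little, at 198, 162 and 262 CPM.

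The 2 lectin chaperones, which hold glycoproteins during folding, parted. Canx, the membrane form, stood at 250, 131 and 348 CPM in Muc2-high cells, 2.65-fold (2.35-2.99) higher in the rescue than the KO, whereas the soluble Calr stood at 918, 901 and 1245 CPM. Both hold an ER stress response element in the windows printed above. Of the 7 counted genes with this element, Pdia6 was past 2-fold in both comparisons in this class, Creld2 and Canx in 1 of them, and Hspa5, Hsp90b1, Calr and Dnajc3 in neither.

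Outside Muc2-high cells, Dnajb9 in Mki67-positive cells and Canx in Fabp1-high cells were the only folding chaperones past 2-fold in either comparison. In Mki67-positive cells Hspa5 stood at 663, 846 and 895 CPM, Calr at 548, 775 and 852, and Hsp90b1 at 651, 775 and 849, each lowest in the control. In Ptprc-positive cells Hspa5 ran the other way, at 832, 676 and 555 CPM. Dnajb9 was lower in the KO than the control in each class, and in Mki67-positive cells 2.11-fold (1.81-2.46) lower at 67.8, 32.2 and 48.5 CPM. Canx stood at 266, 141 and 287 CPM in Fabp1-high cells, or 2.03-fold (1.94-2.13) higher in the rescue than the KO, which was under 2-fold in 7 of 14 alternatives and a log2 ratio of -1.85 at the 10% mitochondrial limit. In Ptprc-positive cells it was 1.93-fold (1.72-2.17) higher in the KO, at 135, 261 and 148 CPM.

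The disulfide isomerases, which form and correct the cysteine bridges on which mucins depend, stood together at 1366, 605 and 1444 CPM in Muc2-high cells of control, KO and rescue. Pdia4 stood at 128, 37.9 and 135 CPM, or 3.38-fold (2.75-4.16) lower in the KO than the control and 3.57-fold (2.91-4.39) higher in the rescue than the KO. Pdia6 stood at 551, 206 and 624 CPM, with ratios of 2.68 (2.44-2.94) lower and 3.03 (2.77-3.32) higher. Pdia3, which works with Calr and Canx, kept the order but within 2-fold, at 687, 362 and 685 CPM. In Mki67-positive cells the isomerases were at 673, 684 and 885 CPM together, and none was past 2-fold in either comparison.

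Of the degradation factors, Herpud1, a membrane protein of the complex that returns misfolded proteins to the cytosol, differed most. In Muc2-high cells it stood at 503 CPM (466-542) in control, 155 (145-166) in KO and 314 (285-346) in rescue cells, 3.24-fold (2.93-3.59) lower in the KO than the control and 2.03-fold (1.80-2.28) higher in the rescue than the KO. The second ratio of Herpud1 was under 2-fold in 5 of 13 alternatives, down to a log2 ratio of 0.62. In Mki67-positive cells it stood at 204, 94.0 and 106 CPM, or 2.17-fold (1.98-2.37) lower in the KO. The rescue thus lay near the KO in Mki67-positive cells and between the other libraries in Muc2-high cells. Its partners in the same complex did not share this: Sel1l stood at 55.7, 60.0 and 70.3 CPM in Muc2-high cells and was above a ratio of 1 for KO over control in each of the 4 classes, and Edem1, which trims mannose from doomed glycoproteins, stood at 73.1, 66.4 and 86.2 CPM.

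Derl3, a derlin channel protein made by professional secretory cells, was almost absent from the epithelium, with 0 to 7 UMIs per library in each epithelial class. Ptprc-positive cells held 4, 1 and 21 UMIs of Derl3, which at 0.470 CPM in KO and 4.58 in rescue cells was 9.74-fold (1.57-403) higher, an interval set by the 1 UMI of the KO. Plasma cell markers (5 genes) moved with it, at 76.0, 63.4 and 1975 CPM of Ptprc-positive cells, and among Cd3-positive cells without C1qa the log2 ratio of Derl3 was -0.72. The secreted members behaved like the chaperones. Manf, a stress-induced ER protein, stood at 516, 310 and 669 CPM in Muc2-high cells, 2.16-fold (1.99-2.34) higher in the rescue than the KO, and Creld2 at 69.5, 30.4 and 58.2 CPM, or 2.29-fold (1.76-2.96) lower in the KO than the control.

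**Figure D4:**
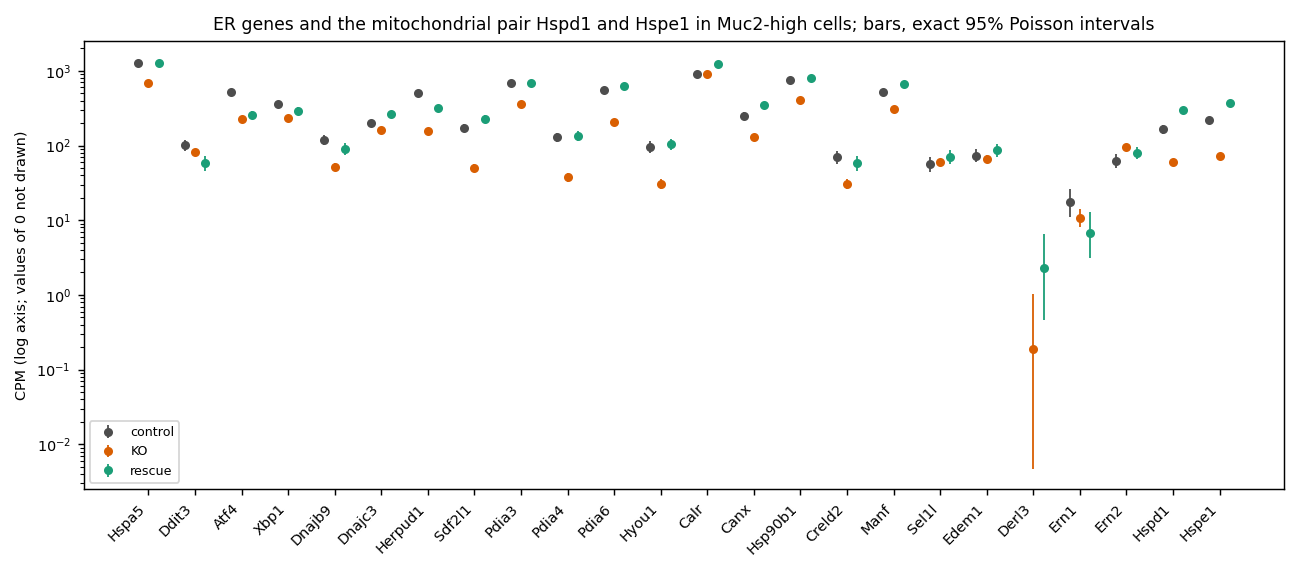
Levels of the 22 ER genes and of Hspd1 and Hspe1 in Muc2-high cells, in CPM on a log axis with exact 95% Poisson intervals, 1 point per library, values of 0 not drawn. The KO points of Sdf2l1, Pdia4, Pdia6, Hyou1, Herpud1, Hspd1 and Hspe1 lie below both other libraries with no overlap of intervals, whereas Calr of the control and KO (918 and 901 CPM) and Sel1l lie together.

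Marker genes differed in the same Muc2-high cells. Goblet markers were 112788, 234190 and 183447 CPM of the total, Paneth markers 103815, 9723 and 4280 CPM, enterocyte markers 1425, 18438 and 7495 CPM, 10 immune markers 437, 5.97 and 47.6 CPM, and the 2 haemoglobin genes 29.7, 10.6 and 3045 CPM. A larger share of mucin and other markers lowers the CPM of all other genes. The UMIs of goblet and Paneth markers and of defensin genes were therefore taken out of the total, while the other markers stayed in. The ER genes named as past 2-fold lower in the KO were still so. With median-of-ratios size factors Atf4, Dnajb9, Creld2 and, of the heat shock genes, Dnajb1 and Hsp90ab1 were under 2-fold lower in the KO. Without the Lyz1-high cells 13 of the ER genes were at least 2-fold lower in the KO in place of 8, and the share of all genes was 23.1% in place of 16.3%. The part of the remaining marker differences in these ratios was not tested.

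The inducible HSP70 genes Hspa1a (ENSMUSG00000091971, chromosome 17: 34969190-34972156) and Hspa1b (ENSMUSG00000090877, chromosome 17: 34956436-34959238) were far lower in the control than in either other library in 3 of the 4 classes, epithelial as well as immune. They are near-identical neighbouring copies, so that the division of reads between them is uncertain. In Ptprc-positive cells Hspa1a stood at 47.4 CPM (41.4-54.0) in control, 658 (624-694) in KO and 417 (399-436) in rescue cells, 13.9-fold (12.1-16.1) higher in the KO and 8.80-fold (7.66-10.1) higher in the rescue than in the control. Hspa1b stood at 29.4, 267 and 244 CPM, or 9.07-fold (7.53-10.98) higher in the KO than the control.

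In the epithelium the same genes differed in the dividing and mucus-secreting classes but hardly in Fabp1-high cells. Hspa1a stood at 26.4, 181 and 142 CPM in Mki67-positive cells, 6.86-fold (5.65-8.42) higher in the KO than the control, and at 20.3, 145 and 120 CPM in Muc2-high cells, 7.18-fold (4.93-10.9) higher. Hspa1b stood at 14.7, 72.9 and 106 CPM and at 12.3, 73.1 and 89.9 CPM in those classes. In Fabp1-high cells, Hspa1a stood at 69.2, 111 and 92.1 CPM and Hspa1b at 43.2, 46.0 and 81.1 CPM, both within 2-fold for KO over control. The rescue was above the control for both genes in each class, by 1.33-fold (1.18-1.504) for Hspa1a in Fabp1-high cells.

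The difference in immune cells was one of how many cells as well as how much. With each cell thinned to 2000 UMIs, 4.72% (3.41-6.35) of control, 39.8% (33.9-46.1) of KO and 26.6% (23.6-29.8) of rescue Ptprc-positive cells had an Hspa1a UMI, after leaving out 19, 7 and 7 shallower cells. Without thinning the shares were 7.43%, 53.7% and 35.5% at median depths of 5224.5, 5339 and 5032 UMIs. Cells with Paneth levels of Lyz1 outside the 4 classes held Hspa1a at 3.29 CPM in the control and 5.92 CPM in the rescue. Their median depths were 80078 and 111976 UMIs, and the KO library had 0 such cells. The part of free RNA in the Hspa1a values was not tested.

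The makeup of the immune cells was not the same in each library. Macrophage C1qa stood at 5.85, 1019 and 52.8 CPM of Ptprc-positive cells, T cell Cd3g at 3334, 1166 and 3134 CPM, and 8 cycling markers at 79.1, 666 and 237 CPM. Within the Ptprc-positive cells that had a UMI of the T cell genes Cd3d, Cd3e or Cd3g and no C1qa UMI (870, 175 and 737 cells), the differences were larger. Hspa1a stood at 48.0, 1167 and 455 CPM there, 24.3-fold (21.0-28.2) higher in the KO and 9.47-fold (8.24-10.9) higher in the rescue than in the control. Hspa1b stood at 29.5, 471 and 266 CPM.

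The remaining HSF1 targets named at the start followed in these Cd3-positive cells. Dnajb1, the J-protein partner of HSP70, stood at 105, 433 and 204 CPM, or 4.14-fold (3.62-4.73) higher in the KO than the control, and Hsph1, which exchanges the nucleotide of HSP70, at 91.1, 348 and 150 CPM, or 3.82-fold (3.30-4.42) higher. The small chaperone Hspb1 stood at 2.37, 22.1 and 6.24 CPM. Hspa8, Hsp90ab1, Hspd1 and Hspe1, which are abundant without stress, were 1.604, 1.80, 2.25 and 2.01-fold higher in the KO. Hsp90aa1 was 2.23-fold higher. ER genes of the same cells did not share this: Hspa5 stood at 829, 535 and 520 CPM, Ddit3 at 132, 53.6 and 55.9 CPM, and Herpud1 at 113, 92.5 and 89.8 CPM. In this subset 8 of 10 heat shock genes were at least 2-fold higher in the KO, against 5 of 10 in all Ptprc-positive cells. Of all genes, 6.9% were at least 2-fold higher in the subset and 16.4% in the whole class.

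**Figure D5:**
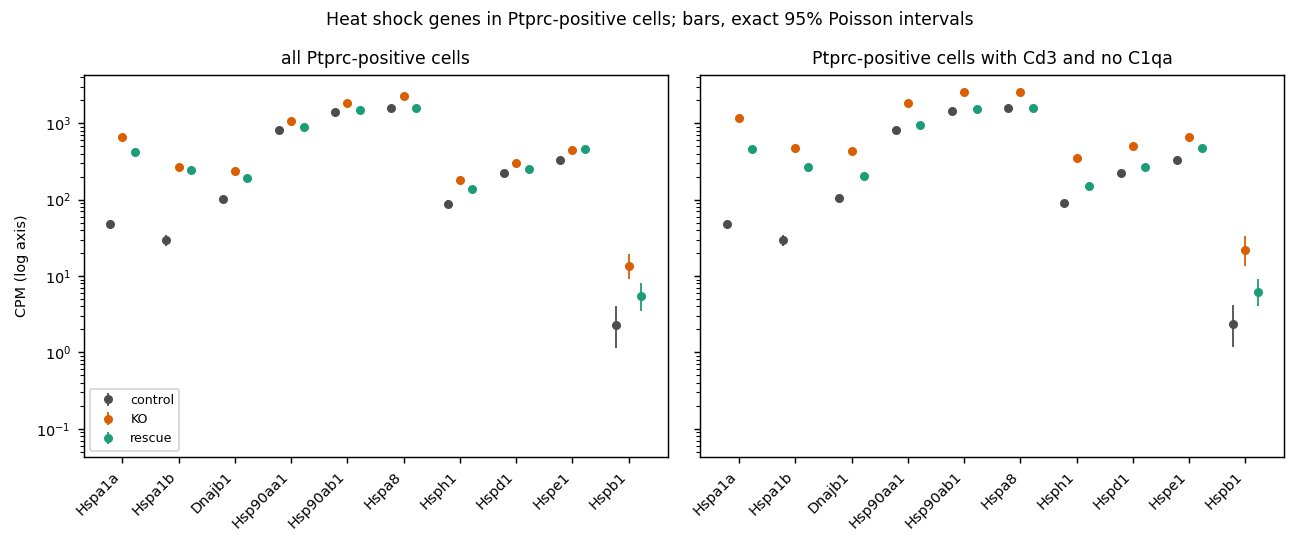
Levels of the 10 heat shock genes in all Ptprc-positive cells (left) and in those with Cd3 and without C1qa (right), in CPM on a log axis with exact 95% Poisson intervals, 1 point per library. Each gene is highest in the KO in the right panel, and the widest gap between libraries is that of Hspa1a, from 48.0 CPM in the control to 1167 in the KO.

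Hspa1a in Ptprc-positive cells was low in the control at each mitochondrial share up to 40%. Between 0 and 10% mitochondrial UMIs it stood at 45.6, 565 and 401 CPM in control, KO and rescue, between 10 and 20% at 70.4, 1079 and 460 CPM, and between 20 and 40%, above the limit used, at 24.5, 1026 and 589 CPM from only 56, 16 and 21 cells. The order of the libraries was the same in each of these bins. Immediate-early genes that dissociation is known to raise were also higher in KO and rescue Ptprc-positive cells, 13 genes together standing at 5801, 7395 and 7795 CPM. For KO over control 11 of the 13 had a ratio above 1 and 2 below. Of them 6 were at least 2-fold higher, against 16.4% of all genes. The median log2 ratio of this list was 0.96, beside 0.76 for the 10 heat shock genes. Its most abundant gene, Junb, was lower in the KO, at 2437, 1902 and 3153 CPM. In the epithelium that list ran the opposite way to Hspa1a, at 9187, 4079 and 5325 CPM in Mki67-positive cells and 10543, 4738 and 6395 CPM in Muc2-high cells. Its part in the heat shock values was not tested.

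Dnajb1 was the cytosolic heat shock gene whose direction differed between Mki67-positive and Ptprc-positive cells, since 7 of 8 such genes had a KO over control ratio above 1 in the former and 8 of 8 in the latter. Dnajb1 was 2.32-fold (2.05-2.64) higher in the KO than the control in Ptprc-positive cells, at 102, 237 and 193 CPM, but lower by 2.06-fold (1.86-2.28) in Mki67-positive cells, at 154, 74.7 and 137 CPM, and by 2.34-fold (2.04-2.68) in Muc2-high cells, at 246, 105 and 126 CPM. In both epithelial classes Dnajb1 thus ran against Hspa1a. Whether the ratio differs between classes was not tested. In Ptprc-positive cells with at least 5000 UMIs each, the log2 ratio of Dnajb1 was 0.55, under 2-fold.

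Hspa8 and the cytosolic HSP90 genes stayed within 2-fold in Mki67-positive cells. Hspa8, the housekeeping HSP70, stood at 1679, 2251 and 2233 CPM there, Hsp90ab1 at 2360, 3004 and 2283 CPM and Hsp90aa1 at 731, 1058 and 941 CPM. In Muc2-high cells Hsp90ab1 stood at 1021, 508 and 777 CPM, or 2.01-fold (1.89-2.15) lower in the KO than the control, a difference that was under 2-fold at the 10% mitochondrial limit, with size factors, and with the secretory marker genes out of the total. Hsph1 was at 11.6, 11.2 and 29.5 CPM in Muc2-high cells, 2.63-fold (1.71-4.01) higher in the rescue than the KO, from 60 and 39 UMIs.

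Hspb1 was rare in each class and rests on few UMIs from few cells. Before thinning, 1.25%, 4.85% and 4.68% of Mki67-positive cells in control, KO and rescue had an Hspb1 UMI. In Fabp1-high cells of the KO the share was 0.684%. The intervals below do not cover the spread between cells. In Mki67-positive cells it had 5, 82 and 50 UMIs, 1.25, 6.10 and 2.25 CPM, or 4.90-fold (2.02-15.5) higher in the KO than the control and 2.71-fold (1.88-3.93) lower in the rescue than the KO. In Ptprc-positive cells it had 11, 29 and 25 UMIs, 5.93-fold (2.88-13.2) higher in the KO. In Fabp1-high cells it had 49 UMIs in the KO, 1.38 CPM, and 0 in the control and rescue, where the count of 0 allows up to 0.635 and 0.418 CPM. The 3 stromal markers had 0, 964 and 219 UMIs in Mki67-positive and 0, 476 and 0 UMIs in Fabp1-high cells, and their part in the Hspb1 values was not tested.

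The mitochondrial pair Hspd1 and Hspe1, the folding chamber and its lid, had like KO over control ratios in each class, unlike those of the inducible genes. In Muc2-high cells Hspd1 (ENSMUSG00000025980, chromosome 1: 55077835-55088243) stood at 164 CPM (144-187) in control, 59.3 (53.0-66.2) in KO and 299 (270-329) in rescue cells. Hspe1 (ENSMUSG00000073676, chromosome 1: 55088132-55091307) stood at 217, 72.5 and 373 CPM. Hspd1 was 2.77-fold (2.33-3.30) lower and Hspe1 2.99-fold (2.57-3.49) lower in the KO than the control, and they were 5.03-fold (4.33-5.85) and 5.15-fold (4.50-5.89) higher in the rescue than the KO, the highest rescue over KO ratios of any counted member in this class. They share the heat shock element printed above.

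In Fabp1-high cells the pair stood at 255, 87.5 and 182 CPM (Hspd1) and 348, 113 and 277 CPM (Hspe1), 2.91-fold (2.74-3.099) and 3.08-fold (2.91-3.25) lower in the KO than the control. Depth has to be read beside these values. Among the Fabp1-high cells with 10 to 20% mitochondrial UMIs, with 127, 456 and 220 cells of median depth 47084, 39129.5 and 41887.5 UMIs, Hspd1 stood at 259, 53.5 and 192 CPM and Hspe1 at 354, 81.1 and 295 CPM. Among those with at most 10%, with 31, 421 and 205 cells of median depth 1914, 49251 and 3341, Hspd1 stood at 143, 117 and 84.1 CPM and Hspe1 at 194, 141 and 97.5 CPM. A KO level below both other libraries was thus seen only in the cells with the higher mitochondrial share. Median depth was similar in the 3 libraries there, but 16, 121 and 57 of those cells had under 5000 UMIs. In Mki67-positive cells the pair was highest in the KO and rescue, Hspd1 at 843, 1117 and 1106 CPM and Hspe1 at 935, 1177 and 1372 CPM. In Ptprc-positive cells Hspd1 stood at 222, 304 and 252 CPM and Hspe1 at 329, 442 and 463 CPM. Their rescue over KO ratios thus lay on opposite sides of 1 in that class.

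The rest of both pathways, 48 other genes of the unfolded protein response and 39 other chaperones and cofactors, were counted in the same way, against the same shares of all genes as above. In Muc2-high cells, with 18.2% of all genes higher and 16.3% lower in the KO and 16.5% higher and 10.4% lower in the rescue, 2 of 47 counted response genes were at least 2-fold higher and 11 lower in the KO than the control (median -0.58), and 9 were higher and 2 lower in the rescue than the KO (median 0.46). Of 35 other heat shock genes there, 1 was higher and 10 were lower in the KO (median -0.67), and 12 were higher and 1 lower in the rescue (median 0.72). In Mki67-positive cells the counts were 1 higher and 7 lower of 47 response genes for KO over control, and 0 and 0 of 37 heat shock genes in either comparison. In Fabp1-high cells 1 response gene was higher and 4 lower of 48 for KO over control (median -0.15), and 1 heat shock gene higher and 4 lower of 37 (median -0.21), where 19.2% of all genes were lower. Ptprc-positive cells had 1 response gene higher and 5 lower of 47, and 1 heat shock gene higher and 4 lower of 36. The 2-fold counts of the wider heat shock list thus did not follow those of the 10 members. Its median was 0.09, with 21 genes above a ratio of 1 and 15 below. The median was 0.76 for the 10 members and -0.03 for all genes.

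Named by the size of their ratio, the other genes with the highest KO over control ratios in Mki67-positive cells were Creb3l3, an ER-bound transcription factor of liver and gut, at 33.7, 94.5 and 31.8 CPM in control, KO and rescue, Ero1l, the oxidase that recharges the isomerases, 1.96-fold (1.62-2.38) higher, and Derl2, 1.63-fold (1.40-1.92) higher. The lowest were Txndc5, an isomerase, 2.16-fold (1.96-2.37) lower, Ppp1r15a, which ends the translation block of the PERK branch, 2.11-fold (1.84-2.41) lower, and Agr2, the isomerase of mucin-secreting cells, 2.03-fold (1.96-2.11) lower. In Fabp1-high cells Fkbp4, an HSP90 cofactor, was 3.18-fold (2.91-3.47) lower and Ppp1r15a 2.27-fold (2.04-2.52) lower. The highest there were Creb3l3, Derl2 and Ero1l, by 1.40, 1.36 and 1.301-fold.

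For rescue over KO, Creb3l3 was the lowest of these genes in both classes, 2.97-fold (2.71-3.26) lower in Mki67-positive and 1.97-fold (1.90-2.05) lower in Fabp1-high cells. Beside it stood Hspa4 and Clpp in Mki67-positive cells, 1.37 and 1.47-fold lower, and Cct5 and Os9 in Fabp1-high cells, 1.43 and 1.53-fold lower. Among the highest ratios were those of Ganab (1.43) and Sec61g (1.34) in Mki67-positive cells, and of Fkbp4 (2.40) and Ssr1 (1.68) in Fabp1-high cells. Fkbp4 was thus among the lowest in the KO and the highest in the rescue of Fabp1-high cells, where depth differs between the libraries.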

How the data were processed

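Each of the 3 libraries came as a sparse matrix of UMI counts per gene and barcode, which the authors deposited as written by Cell Ranger. Its version is 3.0.2 for the control and KO and 3.1.0 for the rescue per the file headers, but 1.3.0 per the submitters' processing notes. The genome build and annotation used are not given in the sources used here. Crypts were dissociated with TrypLE for 1 hour and 4000-5000 cells were harvested per library, per the labels' protocols. Gene coordinates came from GENCODE vM21 (GRCm38), which holds 28339 (98.77%) of the 28692 identifiers.

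Analysis used Python 3.11.15, numpy 2.4.6, pandas 2.3.3, scipy 1.17.1 and matplotlib 3.10.9. Kept barcodes were classed in order: Ptprc-positive (at least 1 Ptprc UMI and more than Epcam), Mki67-positive (at least 2 UMIs), Muc2-high (at least 10 per 10000 and at least 5 UMIs), Fabp1-high (at least 50 per 10000), none. Among the last, Jchain-high cells had at least 50 Jchain and Lyz1-high cells at least 200 Lyz1 UMIs per 10000. No doublet caller was run, and the alternative without barcodes holding at least 2 UMIs of both Ptprc and Epcam left out 242, 85 and 161. UMIs were summed by class and library and given as CPM with exact Poisson intervals. Ratios had exact conditional binomial intervals. List medians used log2 ratios with a pseudocount of 1 CPM over genes with at least 20 UMIs in 1 of 2 libraries. A count of 0 allows up to the upper bound of its Poisson interval. The ratio and interval steps were tested on simulated class sums that held counting error only, so the spread between cells was not covered.

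The members, gene lists and tests were chosen with earlier results of these data known. Named were all 32 members and, of the other pathway genes with at least 50 CPM, the 3 highest and 3 lowest ratios in each comparison in Mki67-positive and Fabp1-high cells. Of the genes this rule names, 1 is not reported here. The symbols Ero1a, Ero1b and Cct6a of those lists were not found, and Ero1l and Ero1lb were used for the first pair. In all, 19 alternatives were run, 4 of them, and the extension of the others to Muc2-high and Ptprc-positive cells, chosen after seeing the data. The protein sequences of the members were not used here.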

Additional observations from a re-analysis of the deposited data

Results flagged for a closer look

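The heat shock genes differed in opposite directions between classes in the same pair of libraries. For KO over control their median log2 ratio was 0.76 in Ptprc-positive cells, where all 10 had a ratio above 1, and -0.41 in Fabp1-high cells, where 7 of 10 had one below 1. For rescue over KO it was 0.49 in Muc2-high cells and -0.31 in Ptprc-positive cells. With 1 library per genotype these differences between classes were not tested.

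A signal outside the 4 classes came from the few barcodes rich in Jchain, an antibody-joining gene of plasma cells, of which the KO held 2, the rescue 4 and the control 0. Derl3, which was at most 4.58 CPM in the 4 classes, stood at 145 CPM in those of the KO (5 UMIs, interval 47.2-339) and at 204 CPM in those of the rescue (14 UMIs, 112-342).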

How the results depend on the processing

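Of 216 values of the 16 list medians under the alternatives, 208 lay within the exact rank interval of the reported median and 8 outside. At the 10% mitochondrial limit, which leaves mostly shallow Fabp1-high cells in the control and rescue, the Fabp1-high medians were 0.82 (ER, KO over control), -1.80 (ER, rescue over KO) and -1.08 (heat shock, rescue over KO), and for rescue over KO Canx was at -1.85, Hspd1 at -0.47, Hspe1 at -0.53 and Hsph1 at -1.40. With equal weight per cell the ER median for rescue over KO in Fabp1-high cells was -0.40 and Hsph1 stood at -0.11. In Cd3-positive cells without C1qa, the ER median was -0.28 for KO over control, the heat shock median -0.94 for rescue over KO, and Derl3 at -0.72. The heat shock median was 0.24 for KO over control in Mki67-positive cells without Lyz1-high cells, and 0.10 for rescue over KO in Muc2-high cells with size factors. The cause of these shifts was not tested, and at the 10% limit mitochondrial share and depth cannot be told apart.

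Of 53 member values past 2-fold, 48 kept their direction in every alternative run, and 23 stayed past 2-fold in every one. Counts that moved by over 1.5 times were mostly those of Fabp1-high cells. At the 10% limit ER genes past 2-fold went from 0 to 8 higher for KO over control (39.4% of all genes). They went from 1 to 19 lower for rescue over KO (31.9%). Heat shock genes for rescue over KO went from 3 to 0 higher and from 1 to 5 lower (10.2% and 31.9% of all genes). ER genes lower in the KO in Fabp1-high cells numbered 2 as reported and 6 without mitochondrial and ribosomal genes in the total (19.2% and 22.2% of all genes). In Muc2-high cells ER genes lower in the KO went from 8 to 13 without Lyz1-high cells or from 20 Muc2 UMIs per 10000 (23.1% and 20.9% of all genes). Those higher in the rescue went from 7 to 12 at the 10% limit (12.7% of all genes). Without mitochondrial and ribosomal genes in the total they numbered 11 (21.6%). Heat shock genes of this class lower in the KO went from 4 to 2 with size factors (11.3%). In Ptprc-positive cells heat shock genes higher in the KO went from 5 to 8 in Cd3-positive cells (6.9% of all genes). They went to 2 in cells of at least 5000 UMIs and to 3 with cells thinned to 5000 (17.8% and 12.6%). Those lower in the rescue went from 1 to 4 in Cd3-positive cells (4.34%). In Mki67-positive cells ER genes lower in the KO went from 3 to 1 with thinned cells (3.98% of all genes). A fold of 1.5 in place of 2 gave 15 ER genes lower in the KO in Muc2-high cells (28.5% of all genes). It gave 13 higher in the rescue there (32.3%), and 8 lower in the KO in Fabp1-high cells (32.6%). Size factors moved the median log2 ratio of all genes to 0.19 for KO over control and -0.16 for rescue over KO in Muc2-high cells, where 23.4% of genes were then at least 2-fold higher and 11.3% lower in the KO. No paired analysis was possible because each genotype has 1 library. Depth limits Hspb1 and Derl3, with under 100 UMIs in each class.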

Other observations

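Other groups of barcodes lay outside the 4 classes. In the Jchain-high barcodes of the KO and rescue, Xbp1, which plasma cells need for antibody secretion, stood at 844 and 1312 CPM, Hsp90b1 at 1135 and 2449 CPM, Pdia4 at 116 and 787 CPM, and the 22 ER genes together at 4567 and 11646 CPM, from 2 and 4 barcodes. In the Lyz1-high cells of the control and rescue (32 and 8 cells), which carried Paneth cell genes at 439820 and 412203 CPM, the ER genes together stood at 1339 and 1626 CPM and the heat shock genes at 684 and 712 CPM. Within them Hspa5 stood at 230 and 244 CPM, Herpud1 at 212 and 162 CPM, Ddit3 at 73.1 and 24.6 CPM, and Ern2 at 9.14 and 10.8 CPM. The KO library held 0 Lyz1-high cells outside the classes.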
